A study of Homo sapiens with 6 samples.

Results

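The HOX gene clusters of MCF10A cells were described from lists of open chromatin regions. Members were the protein-coding genes of GENCODE release 44 whose symbol is HOXA, HOXB, HOXC or HOXD followed by digits, which gave 39 of 20033 protein-coding genes, 11 in HOXA, 10 in HOXB, 9 in HOXC and 9 in HOXD. A cluster window ran from the first to the last gene of a cluster with 10 kb added on either side. On hg38 the windows were chr7:27082993-27210091 for HOXA (127.1 kb), chr17:48518526-48738750 for HOXB (220.2 kb), chr12:53928831-54066030 for HOXC (137.2 kb) and chr2:176082721-176200907 for HOXD (118.2 kb). The cell line, MCF10A, derives from human breast epithelium, does not form tumors and carried no added genetic change here. All cells were first kept in phosphate-free HHBSS, a HEPES-buffered salt solution, and then stayed in it untreated (control) or received the Zn2+ chelator TPA (tris(2-pyridylmethyl)amine) at 50 μM or ZnCl2 at 30 μM, in each case for 30 min. ATAC-seq, in which Tn5 transposase inserts adapters into accessible DNA, was run on 2 libraries per condition, 6 in all. The study's text calls the replicates biological in one place and technical in another, so every p-value below measures only the spread between these libraries.

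HOX genes encode homeodomain transcription factors that give cells their position along the body axis, and their order along the chromosome follows the order in which they are used from head to tail. Low-numbered paralogs lie at the 3′ end of a cluster and high-numbered paralogs at its 5′ end. Polycomb proteins keep unused HOX genes silent, Trithorax proteins keep used ones active, and CTCF binding sites divide the clusters into domains. Adult epithelia, the mammary gland included, keep their own selection of HOX genes in use.

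The lists give the position of each region and a score, and a region's score percentile is the percent of regions in the same list with a lower score. Overlapping regions of the 6 libraries were merged, which left 24 merged regions in the HOX windows among 49527 in the genome, numbered below along each chromosome. Sequence was read from hg38. The first set shows the stretches around each match to the core of the CTCF motif (CCA, AG and GGC, each separated by 2 unspecified bases, searched on both strands) that lay in a region open in 3 or more libraries, because both merged regions of HOXD hold one. Each sequence is written 5′ to 3′ on the strand where the core reads forward, with the core in capitals. They come from chr2:176097690-176097839 on the minus strand, chr2:176140576-176140725 on the plus strand, chr7:27150452-27150601 on the minus strand and chr7:27161069-27161218 on the minus strand.
HOXD region 1: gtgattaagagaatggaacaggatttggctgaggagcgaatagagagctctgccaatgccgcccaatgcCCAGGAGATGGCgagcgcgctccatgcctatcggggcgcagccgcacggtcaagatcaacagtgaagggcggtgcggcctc
HOXD region 2: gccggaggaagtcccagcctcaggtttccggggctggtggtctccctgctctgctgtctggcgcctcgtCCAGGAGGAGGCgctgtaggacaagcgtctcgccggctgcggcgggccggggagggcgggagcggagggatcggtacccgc
HOXA region 6: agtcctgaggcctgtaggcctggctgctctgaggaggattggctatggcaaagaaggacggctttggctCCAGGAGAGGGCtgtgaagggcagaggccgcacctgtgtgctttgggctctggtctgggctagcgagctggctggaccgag
HOXA region 7: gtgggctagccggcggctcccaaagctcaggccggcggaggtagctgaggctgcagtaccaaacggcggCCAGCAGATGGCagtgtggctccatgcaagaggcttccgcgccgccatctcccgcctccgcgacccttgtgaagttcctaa

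The second set shows 150 bases from the middle of the sequence shared by every call of 2 recurrent regions, on the plus strand, with CG dinucleotides in capitals. HOXA region 5 covers the HOXA5 start site and HOXC region 6 lies at the annotated start of HOXC4. Both were open in all 6 libraries. The stretches are chr7:27142805-27142954 and chr12:54018190-54018339.
HOXA region 5: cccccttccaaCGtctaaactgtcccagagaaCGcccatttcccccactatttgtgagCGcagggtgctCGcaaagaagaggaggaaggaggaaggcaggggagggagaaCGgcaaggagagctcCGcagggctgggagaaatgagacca
HOXC region 6: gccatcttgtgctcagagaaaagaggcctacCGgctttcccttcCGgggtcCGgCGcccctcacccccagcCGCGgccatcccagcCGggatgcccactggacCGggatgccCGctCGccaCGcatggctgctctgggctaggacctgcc
The stretch at HOXC4 holds 11 CG dinucleotides and that at HOXA5 holds 6.

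The third set shows the 250 bases before the start site of the lowest-numbered genes of HOXA, HOXB and HOXD that no library covered, from RefSeq on GRCh38.p14. The stretches of the second set are shorter and lie downstream of a start site, so CG counts cannot be compared between these sets. The gene of HOXC chosen in this way, HOXC6, had no entry among the RefSeq promoters used here and is named only. HOXA2 (chr7:27102684-27102933, minus strand) encodes the hindbrain patterning factor of the second arch, HOXB1 (chr17:48531012-48531261, minus strand) the factor of a single hindbrain segment, and HOXD1 (chr2:176188418-176188667, plus strand) the paralog of HOXB1 in its cluster. CG dinucleotides are again in capitals.
HOXA2: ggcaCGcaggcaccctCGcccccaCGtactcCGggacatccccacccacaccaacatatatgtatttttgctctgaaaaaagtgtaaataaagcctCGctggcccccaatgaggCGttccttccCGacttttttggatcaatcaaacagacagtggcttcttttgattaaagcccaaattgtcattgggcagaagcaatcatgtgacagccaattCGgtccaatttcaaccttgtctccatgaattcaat
HOXB1: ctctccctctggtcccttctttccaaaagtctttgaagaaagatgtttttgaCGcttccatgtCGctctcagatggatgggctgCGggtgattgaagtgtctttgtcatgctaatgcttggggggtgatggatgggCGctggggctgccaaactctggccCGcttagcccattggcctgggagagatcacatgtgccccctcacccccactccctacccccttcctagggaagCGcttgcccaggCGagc
HOXD1: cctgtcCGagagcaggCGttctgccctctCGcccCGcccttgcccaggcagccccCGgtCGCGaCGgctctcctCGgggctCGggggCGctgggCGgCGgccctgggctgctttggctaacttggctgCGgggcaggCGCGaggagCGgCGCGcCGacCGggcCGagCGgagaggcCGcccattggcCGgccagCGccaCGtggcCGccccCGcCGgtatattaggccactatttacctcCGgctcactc
The HOXD1 promoter holds 31 CG dinucleotides in these 250 bases, against 8 in HOXA2 and 7 in HOXB1, so the promoters that were not covered ranged from poor to rich in CG.

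Across the genome the libraries held 25031 and 44641 regions in control, 35902 and 41376 under TPA, and 38069 and 18887 under ZnCl2. No read counts are in the lists, so sequencing depth is unknown and no interval is given. Marker genes were read in the same way: start sites of 4 of 11 basal and epithelial genes, with ITGB4, KRT8 and KRT18 among them, were covered in all 6 libraries and 6 more in some. KRT8 and KRT18 had the same score percentile as each other in every library, so they may share 1 region. The start of the TP63 gene record, a basal marker, was covered in none. FOXA1 was covered in all 6 libraries, ESR1, PGR and GATA3 in none, and the 5 genes of other lineages in none.

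The HOX clusters held few open regions over start sites, and those regions were concentrated in HOXA and HOXC. A start site was the 5′ end of the GENCODE gene record and was covered when a region overlapped that base. Covered HOX start sites numbered 4 and 8 of 39 in the control libraries, 6 and 6 under TPA, and 8 and 4 under ZnCl2. As percentages these were 10.3, 20.5, 15.4, 15.4, 20.5 and 10.3, in the order control 1 and 2, TPA 1 and 2, ZnCl2 1 and 2. Among all protein-coding genes the same libraries covered 46.5, 57.5, 50.4, 52.6, 55.7 and 43.6%. The HOX share was lower in 6 of 6 libraries, by 35.7 percentage points on average ± 1.47 (SD, n = 6 libraries; two-sided exact sign-flip permutation test, p = 0.03125, the smallest that 6 libraries allow). Among the 16186 protein-coding genes whose promoter GC content lay within the HOX range, from 43.6 to 78.0%, coverage was higher still, from 48.3 to 62.9%. Over all libraries, 3 of 39 HOX genes (7.69%) were covered in all 6 and 29 (74.4%) in none, against 39.3% and 39.8% of all protein-coding genes.

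**Figure D1:**
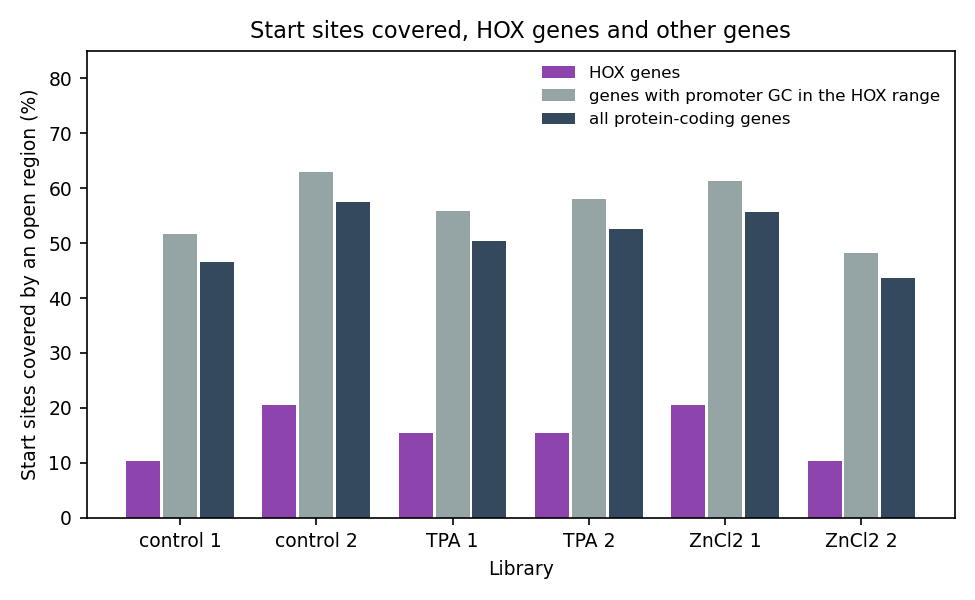
Percent of start sites covered by an open region (y axis) in each of the 6 libraries (x axis), with 1 bar each for HOX genes, protein-coding genes with promoter GC content in the HOX range and all protein-coding genes. The HOX bars lie between 10.3 and 20.5%, and the bars of all protein-coding genes between 43.6 and 57.5%.

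HOXA5 and HOXC13 were among the HOX genes whose start sites were covered in all 6 libraries. HOXA5 (ENSG00000106004.5), a gene of trunk and lung patterning, starts at chr7:27143681 on the minus strand. HOXC13 (ENSG00000123364.5), which controls hair keratin genes, starts at chr12:53938831 on the plus strand. HOXA4 was covered in 5 libraries, the exception being ZnCl2 2. HOXA6 was covered in control 2, TPA 2 and ZnCl2 1. HOXC4 was covered in control 2, TPA 1 and ZnCl2 2, and HOXC5 in control 2, TPA 1 and TPA 2. HOXC11 was covered in control 2 and ZnCl2 1, while HOXB9 and HOXC8 were covered in ZnCl2 1 alone. These 7 genes, covered in some libraries, were thus found mainly in the longer lists.

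No library covered the start sites of the other 29 HOX genes. In HOXA these were 7, with HOXA2, HOXA7 and HOXA13 among them. In HOXB they were all genes except HOXB9, namely HOXB1, HOXB2, HOXB3, HOXB4, HOXB5, HOXB6, HOXB7, HOXB8 and HOXB13. In HOXC they were HOXC6, HOXC9, HOXC10 and HOXC12. All 9 HOXD genes, HOXD1, HOXD3, HOXD4, HOXD8, HOXD9, HOXD10, HOXD11, HOXD12 and HOXD13, were among them. A gene record can start far upstream of the promoter in use. When any annotated protein-coding transcript start counted, HOXA3 and HOXC9 were each covered in 3 libraries and HOXA9 in 1, HOXA6 was covered in none, and 27 genes remained without cover. With 500 bp allowed around the start site, 29 genes still had no cover. Median promoter GC content was 60.2% for the 10 genes covered in 1 or more libraries, 54.0% for the 29 covered in none and 59.6% for all protein-coding genes.

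**Figure D2:**
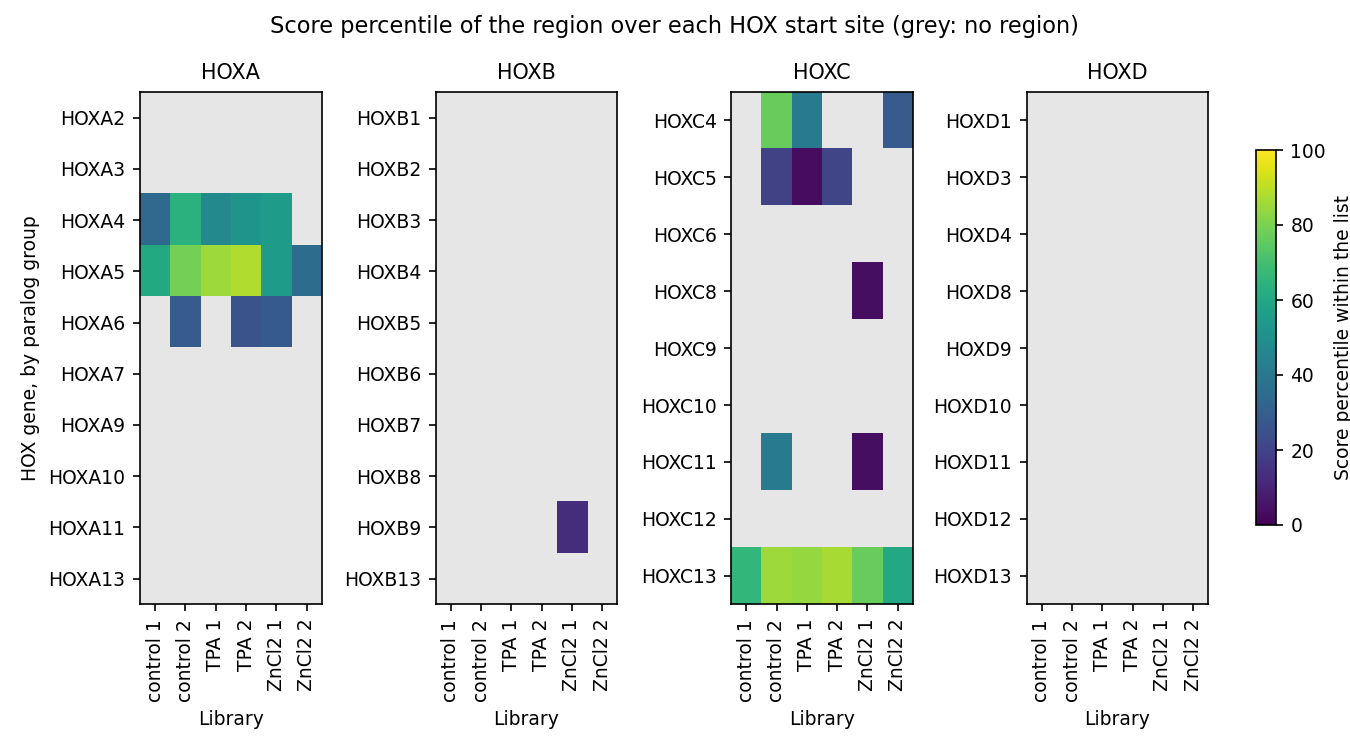
Score percentile (color scale, 0 to 100) of the open region over the start site of the HOX genes shown (rows, by paralog group) in each library (columns), in 1 panel per cluster, with grey where no region covered the start site. HOXA5 and HOXC13 are filled in all 6 columns, and the HOXD panel is empty.

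The paralog groups, which number genes by position and sequence across the clusters, did not separate. Of 12 anterior genes (groups 1 to 4), 3 were covered in at least 1 library, of 15 central genes (groups 5 to 9) 5, and of 12 posterior genes (groups 10 to 13) 2. Each class had 1 gene covered in all 6 libraries. The mean difference between classes was 3.89 percentage points for anterior minus central, 8.33 for anterior minus posterior and 4.44 for central minus posterior. None passed the two-sided exact sign-flip permutation test over 6 libraries, with p adjusted over 3 pairs of 0.344, 0.188 and 0.234. An alternative with an equal number of regions per library kept the 18887 highest-scoring regions of each list. Anterior then exceeded central by 10.0 points, with adjusted p = 0.0469 (exact sign-flip permutation). Central minus posterior was -1.67 points with the same adjusted p. In these lists HOXA5 was the only central gene covered and HOXC13 the only posterior one, each in all 6 libraries. That difference was thus the same in every library and set by class sizes of 15 and 12 genes. Its p-value therefore says nothing about the classes.

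The open share of the windows differed between clusters in the order HOXA, HOXC, then HOXD and HOXB. HOXA had 8.61 and 24.96% of its window in open regions in control, 16.0 and 17.6% under TPA, and 15.9 and 6.29% under ZnCl2. HOXC had 3.98 and 13.02% in control, 5.63 and 7.44% under TPA, and 10.0 and 6.04% under ZnCl2. HOXA exceeded HOXC in each library, although in ZnCl2 2 by only 0.259 percentage points. HOXB had no region in control 1, 1.13% in control 2, 0.359 and 1.14% under TPA, and 3.01 and 0.840% under ZnCl2. HOXD had no region in control 1 or ZnCl2 2, and 2.56, 0.897, 1.27 and 2.37% in control 2, TPA 1, TPA 2 and ZnCl2 1. Means over the 6 libraries were 14.9% ± 6.70 (SD) for HOXA, 7.69% ± 3.31 for HOXC, 1.18% ± 1.11 for HOXD and 1.08% ± 1.05 for HOXB. HOXA and HOXC each exceeded HOXB and HOXD in 6 of 6 libraries.

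The 6 pairs of clusters were compared within libraries by two-sided exact sign-flip permutation tests, with p-values adjusted over the pairs. HOXA exceeded HOXB by 13.8 percentage points ± 6.45 (SD), HOXC by 7.19 ± 4.42 and HOXD by 13.7 ± 5.75, each with adjusted p = 0.0375 (exact, n = 6). HOXC exceeded HOXB by 6.61 ± 2.79 and HOXD by 6.51 ± 2.32, again with adjusted p = 0.0375 (exact, n = 6). HOXB and HOXD differed by less than the spread between libraries, with a mean difference of -0.10 points for HOXB minus HOXD, between -1.42 and 0.840 in single libraries (exact p = 0.8125). With the upper 50% of each list the 5 differences kept their direction, with sizes of 3.47 to 7.70 points and adjusted p of 0.0938 to 0.1125 (exact sign-flip permutation).

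Beside the sequence around them, the clusters went in different directions. The comparison cluster by cluster was added after the open shares had been seen. The 100 kb on either side of the HOXA window held from 0 to 1.20% open sequence, and the HOXA window exceeded it by 14.3 percentage points ± 6.23 (SD) in 6 of 6 libraries. HOXC exceeded its surroundings by 6.23 ± 2.18 points in 6 of 6 libraries. HOXB, in contrast, lay below its surroundings in 6 of 6 libraries, with a mean difference of -2.3 points: they held 1.57 and 3.26% in control, 2.47 and 6.18% under TPA, and 4.42 and 2.39% under ZnCl2. These 3 differences had adjusted p = 0.0417 (two-sided exact sign-flip permutation, adjusted over 4 clusters). HOXD did not differ from its surroundings beyond the spread, with a mean difference of -0.34 points, a positive one in 2 of 6 libraries and adjusted p = 0.469 (exact permutation). With an equal number of regions, the HOXD difference was -1.29 points with p = 0.03125 (exact, adjusted over 4 clusters). With the upper 50% of each list, the HOXA difference was 7.78 points with adjusted p = 0.0625 (exact permutation). The windows together exceeded their surroundings by 3.78 points ± 1.81 (SD; exact p = 0.03125), by 1.79 with an equal number of regions and by 1.57 with the upper 50% of each list.

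**Figure D3:**
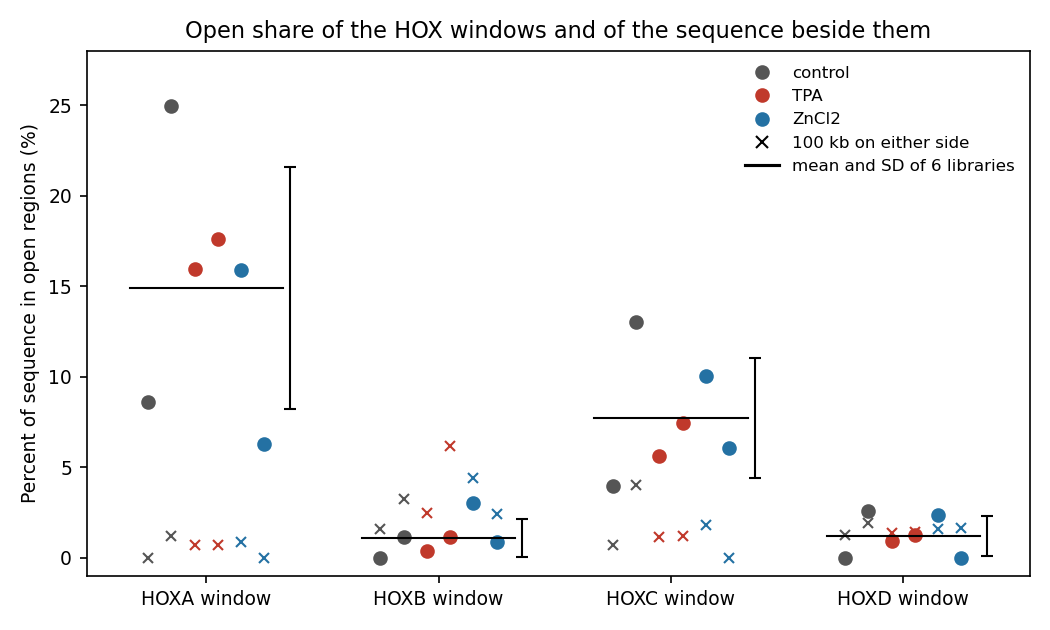
Percent of each HOX window in open regions (y axis, circles) and of the 100 kb on either side of it (crosses), for the 4 clusters (x axis) and 6 libraries colored by condition, with the mean as a line and the SD beside it. The HOXA circles lie between 6.29 and 24.96% and the HOXB circles between 0 and 3.01%.

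The 86 regions called in the windows over all libraries numbered 41 in HOXA, 11 in HOXB, 27 in HOXC and 7 in HOXD. Per library there were 7 and 17 in control, 13 and 21 under TPA, and 23 and 5 under ZnCl2. They were wider than the rest of their lists, with median widths of 2580 and 3440 bp in control, 1680 and 1820 bp under TPA, and 1540 and 3170 bp under ZnCl2. Medians over the whole lists were 1220 and 1760, 1160 and 1070, and 1450 and 2070 bp in the same order, below the HOX median in 6 of 6 libraries. The widest regions of the clusters were 8370 bp over HOXA5 (TPA 1), 6080 bp over HOXC4 (control 2), 3380 bp over HOXB9 (ZnCl2 1) and 1650 bp between HOXD12 and HOXD13 (control 2). Score percentiles ran from 0 to 87.9 with a median of 35.6 over the 86 regions.

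Of the 24 merged regions, 8 lay in HOXA, 6 in HOXB, 8 in HOXC and 2 in HOXD. Those open in all 6 libraries numbered 4 (16.7%), against 32.01% of all 49527 merged regions, and 7 (29.2%) were open in a single library, against 16.7%. Their mean GC content was 57.0% ± 3.86 (SD), against 47.8% ± 7.77 in all merged regions. Within HOXA, no region extended past position 27165740, which lies inside the HOXA9 gene record. The region ending there, open in TPA 2 alone, lay over exon sequence of HOXA9. The remaining 44.4 kb of the window, with the starts of the HOXA9, HOXA10, HOXA11 and HOXA13 gene records, held none in any library. HOXB had its longest stretch without a region, 59.7 kb, around HOXB13, a prostate and hindgut gene. The longest such stretch was 29.8 kb in HOXC, around HOXC12, and 59.4 kb in HOXD, with the starts of HOXD1 and HOXD4.

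**Figure D4:**
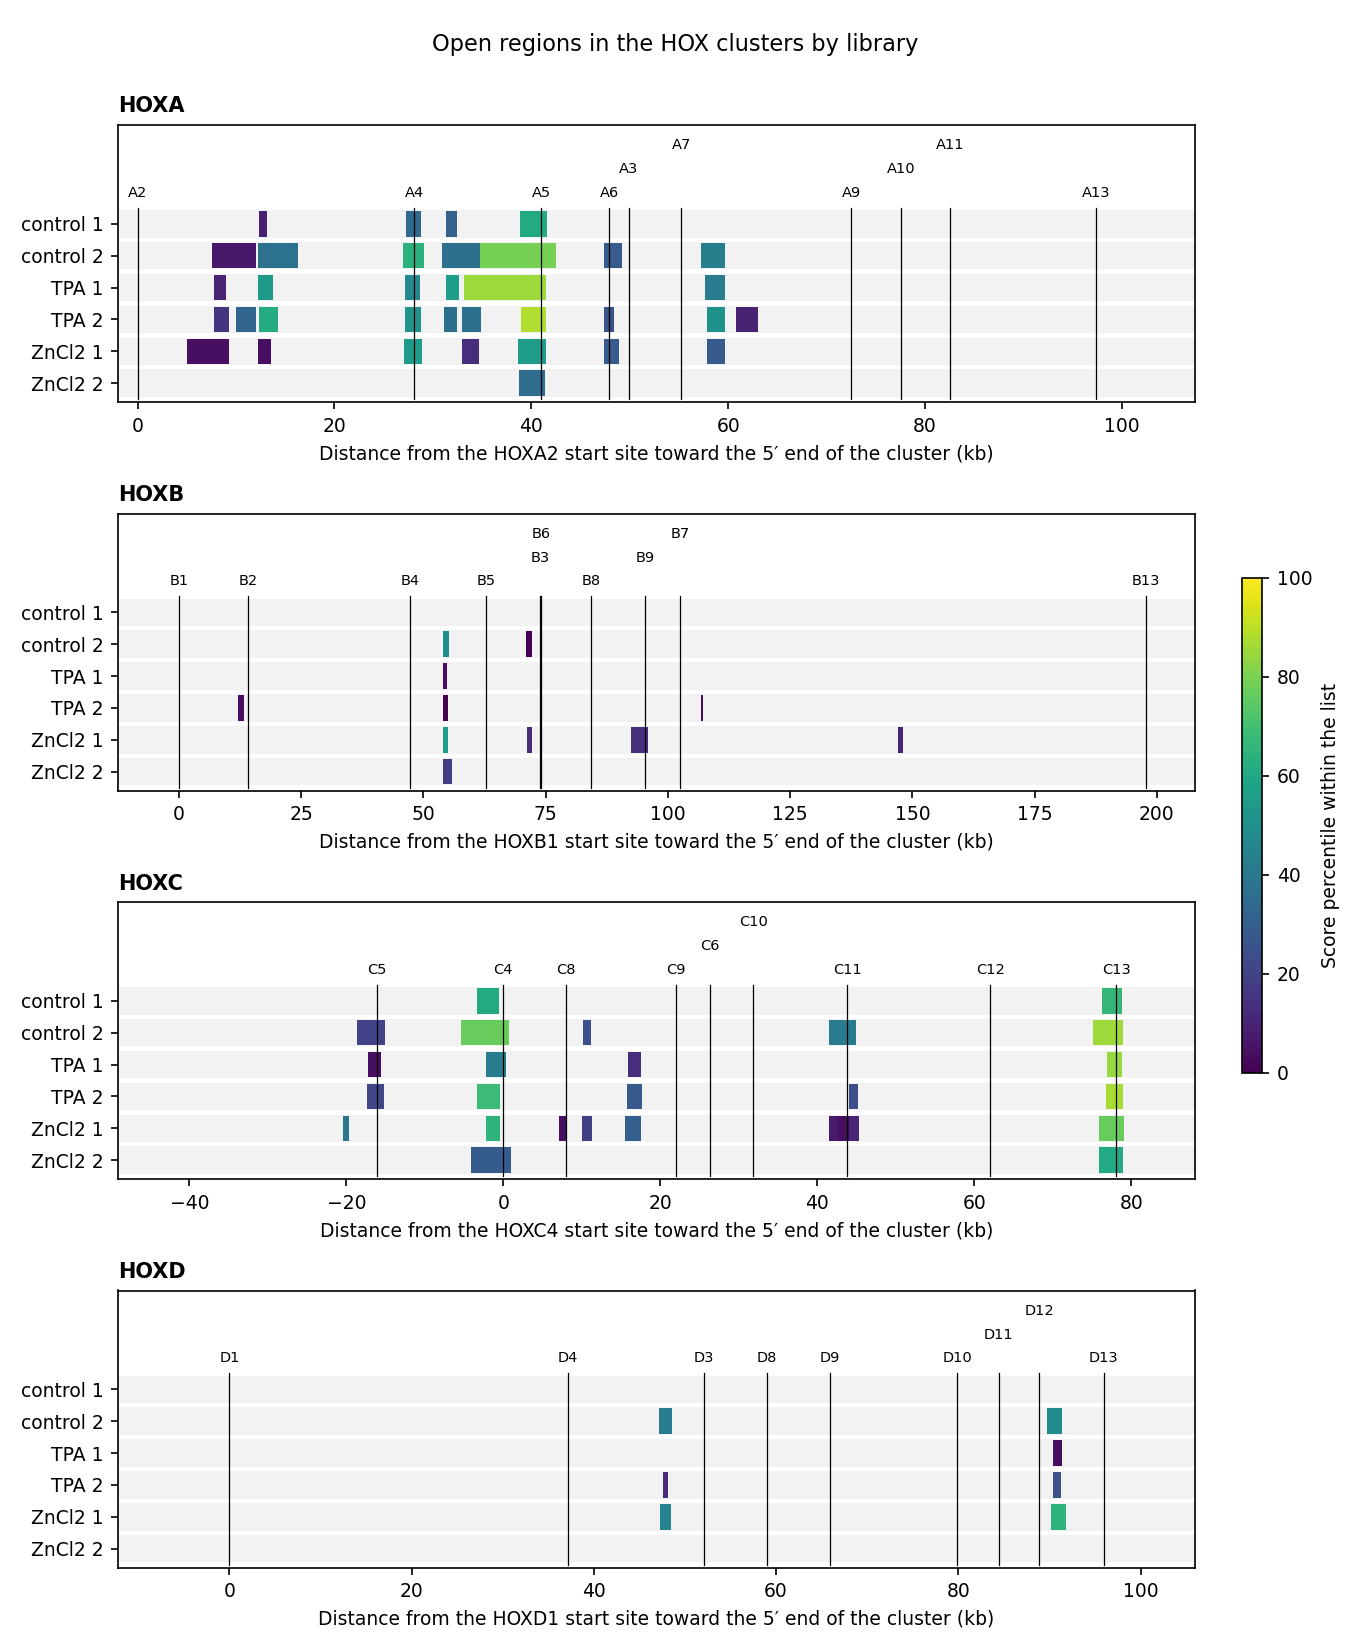
Open regions (bars, colored by score percentile) in the 6 libraries (rows) along each cluster, plotted by distance in kb from the start site of the gene named on the axis, with black lines at HOX start sites labelled without "HOX". The 3′ end of the HOXA window is not drawn. The HOXA bars end between the start-site lines of HOXA7 and HOXA9, and the HOXD panel has bars at only 2 places.

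The recurrent regions away from the starts of HOX gene records held different sequence features. Among them, HOXC region 3 covered the start of HOXC-AS1 in 3 libraries and HOXA region 2 that of HOXA-AS2 in ZnCl2 1. HOXD region 1 (chr2:176096851-176098890), 905 bp from the HOXD12 start site and outside annotated genes, was open in control 2, TPA 1, TPA 2 and ZnCl2 1, at percentiles of 48.4, 3.39, 25.7 and 64.8. HOXD region 2 (chr2:176140141-176141510), within the HOXD3 gene, was open in control 2, TPA 2 and ZnCl2 1, at 41.2, 12.6 and 45.1. HOXA region 7 (chr7:27159951-27162410), intergenic and 2015 bp from the HOXA7 start site, was open in control 2, TPA 1, TPA 2 and ZnCl2 1. These 3 hold a CTCF core within the central 500 bp, as the first set of sequences shows. They were 3 of the 7 regions away from HOX start sites that were open in 3 or more libraries and 3 of all 24 HOX regions (12.5%), against 5.21% of all merged regions. HOXA region 2, HOXA region 3 and HOXC region 3, open in 4, 5 and 3 libraries, held none. The 4 windows hold 34 such cores: 4 of 8 in HOXA and 2 of 5 in HOXD lay wholly in an open region of at least 1 library, and none of 13 in HOXB and of 8 in HOXC. HOXB region 2 (chr17:48585011-48586930), 6661 bp from the HOXB4 start site, was absent from control 1 and had percentiles of 48.4, 3.39, 0, 53.8 and 17.9 in control 2, TPA 1, TPA 2, ZnCl2 1 and ZnCl2 2. No CTCF core was found in its central 500 bp.

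Motifs other than CTCF were counted in the same central 500 bp on both strands. The HOX-PBX motif TGATNNAT, read by HOX proteins with their PBX partners, was in 1 of 24 HOX regions (4.17%) and 19.6% of all merged regions. The metal response element core, read by the zinc sensor MTF1, was searched as TGCACNC, found in 2 of 24 (8.33%) against 24.9%, and as TGCGCNC, found in 9 of 24 (37.5%) against 12.1%. The GC box GGGGCGGGG was in 6 of 24 (25%) against 6.59%, the homeodomain core TAATTA in 2 of 24 (8.33%) against 10.1%, and the TATA box TATAAA in 3 of 24 (12.5%) against 22.4%. Matches to different motifs may overlap. The HOX regions were richer in GC than all merged regions (57.0 against 47.8%), and the part of base composition in these shares was not tested. In the 250 bp before the start site, TGATNNAT was in 7 of 39 HOX promoters (17.9%) and 5.23% of all 20032 promoters read, with 4 of the 7 among the 10 HOX genes covered in 1 or more libraries.

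Between conditions, the number of HOX start sites covered and the open share of the HOX windows did not differ beyond the spread between replicates. Control, TPA and ZnCl2 each covered 6.0 HOX start sites on average, with SDs of 2.83, 0 and 2.83 (n = 2). The HOX windows were open over 2.72 and 9.14% in control, 4.96 and 6.07% under TPA, and 7.20 and 3.01% under ZnCl2, so that the control libraries enclosed all others. The differences in means were -0.42 points for TPA minus control, -0.83 for ZnCl2 minus control and 0.41 for TPA minus ZnCl2. Each had p = 1.0 by the two-sided exact permutation test of 2 against 2, which cannot give less than 0.333. The open share moved with list length, and its part in these values was not tested beyond lists of equal number: the libraries with the fewest regions, control 1 and ZnCl2 2, also had the smallest open shares. With an equal number of regions, the windows were open over 2.58 and 4.13% in control, 3.12 and 2.29% under TPA, and 2.82 and 3.01% under ZnCl2. The HOXA window was more open with both TPA libraries (16.0 and 17.6%) than with both ZnCl2 libraries (15.9 and 6.29%), by a margin of under 0.1 points between the nearest libraries (exact permutation p = 0.333, the smallest possible), and TPA and ZnCl2 overlapped with an equal number of regions. At that number, all pairs of conditions were compared in each of the 4 clusters. Values without overlap were those of HOXA for ZnCl2 minus control (-3.05 points) and HOXC for TPA minus control (-3.08). HOXB had none for ZnCl2 minus control and TPA minus ZnCl2 (0.665 and -0.67). Each had exact permutation p = 0.333, and the remaining comparisons overlapped. The HOXB values rest on 1 region in each ZnCl2 library and none elsewhere, and the ZnCl2 2 list was kept whole.

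The median score percentile of HOX regions was 60.8 and 41.2 in control, 41.5 and 27.9 under TPA, and 28.1 and 28.7 under ZnCl2. In the same order these medians rest on 7 and 17, 13 and 21, and 23 and 5 regions. The part of list length in them was not tested beyond lists of equal number, which left 5 to 7 HOX regions per library. Both ZnCl2 libraries lay below both control libraries, with a mean difference of -22.5 (exact permutation p = 0.333), whereas TPA overlapped control, with a mean difference of -16.3 (exact permutation p = 0.667). TPA did not overlap control either when the lists held an equal number of regions, with a mean difference of -11.5 (exact permutation p = 0.333). TPA minus ZnCl2 was 6.26 (exact permutation p = 1.0).

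At single start sites, HOXA5 was the HOX gene whose percentile differed in order between all 3 conditions. Its region ranked at percentiles of 60.8 and 79.0 in control, 85.3 and 87.9 under TPA, and 55.05 and 35.2 under ZnCl2. Both TPA libraries were above both control libraries and both ZnCl2 libraries below them, a pattern shown by 0.749% of all protein-coding start sites and by 1 of 39 HOX genes. The mean differences were 16.7 for TPA minus control, -24.8 for ZnCl2 minus control and 41.5 for TPA minus ZnCl2 (exact permutation p = 0.333 each). Leaving out 1 library moved the first to between 7.59 (without control 1) and 25.8 (without control 2) and the second to between -34.7 (without ZnCl2 1) and -14.9 (without ZnCl2 2), and the upper 50% of each list gave 33.8, -35.4 and 69.2. With an equal number of regions the order was the same, at 48.0 and 50.4 in control, 72.1 and 73.6 under TPA, and 9.39 and 35.2 under ZnCl2. The width of the HOXA5 region did not follow the percentile: it was 2830 and 7710 bp in control, 8370 and 2540 bp under TPA, and 2820 and 2660 bp under ZnCl2.

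HOXC13 had percentiles of 66.1 and 85.4 in control, 84.2 and 86.9 under TPA, and 76.8 and 60.5 under ZnCl2, so that TPA exceeded ZnCl2 and both overlapped control. The HOXC13 values for equal numbers of regions were 55.1 and 65.4 in control, 69.9 and 71.4 under TPA, and 53.2 and 60.5 under ZnCl2, and both TPA libraries then lay above both control libraries. For the HOXC13 region, TPA minus ZnCl2 was 16.9 points with all regions (exact permutation p = 0.333), 8.74 without ZnCl2 2 and 35.1 with the upper 50% of each list. HOXC5, a trunk patterning gene, had no region in control 1 or in either ZnCl2 library and percentiles of 19.7, 3.39 and 20.7 in control 2, TPA 1 and TPA 2. Its TPA regions, low in their lists, were not among the highest-scoring 18887.

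**Figure D5:**
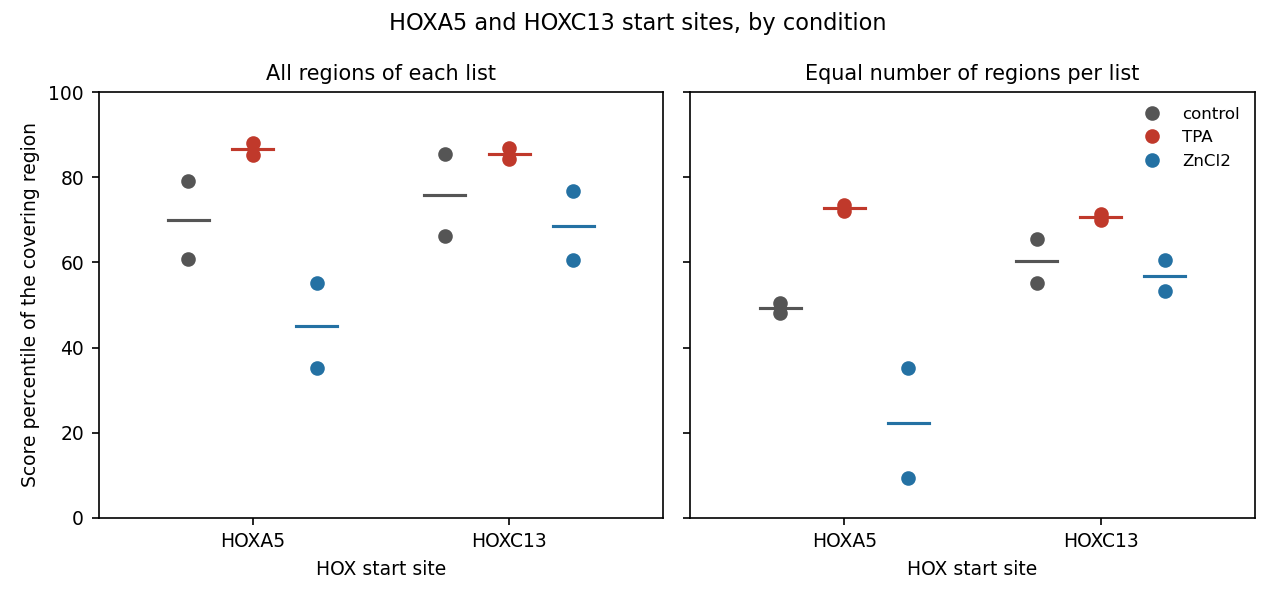
Score percentile (y axis, 0 to 100) of the region over the start sites of HOXA5 and HOXC13 (x axis) by condition, with 1 point per library and a line at the mean of 2, from all regions (left) and from an equal number of regions per list (right). At HOXA5 the TPA points lie above the control points and the ZnCl2 points below them in both panels.

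Across the HOX start sites, with an uncovered start site ranked below any covered one, few members separated the conditions, and their share was set beside that of all 20033 protein-coding start sites. Both TPA libraries ranked above both control libraries at 1 of 39 HOX genes (2.56%; HOXA5), against 6.35% of all, and below them at none, against 10.9%. Both ZnCl2 libraries ranked above both control libraries at none, against 1.31%, and below them at 2 (5.13%), HOXA5 among them, against 6.62%. Both TPA libraries ranked above both ZnCl2 libraries at 4 (10.3%), with HOXA5, HOXC5 and HOXC13 among them, against 12.8%, and below them at none, against 8.57%. A start site covered in no library cannot separate the conditions, so the counts were also set against the covered genes, 10 of 39 HOX genes and 12060 of all. Among these, ZnCl2 ranked below control at 2 of 10 HOX genes against 11% of all and TPA above ZnCl2 at 4 of 10 against 21.2%, while TPA ranked above control at 1 of 10 against 10.5%. Start sites covered in both libraries of a condition and neither of the other numbered none for TPA and control, against 0.859%, and none for ZnCl2 and control, against 0.235%. HOXC5 (2.56%) was the single case for TPA and ZnCl2, against 1.57%. These counts use the start of the gene record. When any protein-coding transcript start counted, HOXC9 was covered in 3 libraries. The only merged region within HOXC9, HOXC region 3, was open in TPA 1, TPA 2 and ZnCl2 1, so HOXC9 then separated TPA from control. The matching share of all genes was not counted.

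Widths of the region over the start site were compared in the same way. Both TPA libraries had narrower regions than both control libraries at 2 HOX genes (5.13%), HOXC13 among them, against 8.35% of all start sites (2 of 10 against 13.9% among covered genes), and wider ones at no HOX gene, against 1.25%. The HOXC13 region measured 2580 and 3820 bp in control, 1870 and 2110 bp under TPA, and 3240 and 3170 bp under ZnCl2. The same 2 genes were narrower under TPA than under ZnCl2, against 24.0% of all start sites, and HOXC5 alone was wider, against 3.03%. Median widths of the whole lists were also lowest under TPA, and their part in these differences was not tested. ZnCl2 regions were narrower than control regions at HOXA5, by 10 bp at the nearest libraries, against 2.01% of all, and wider at no HOX gene, against 4.72%.

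Merged regions that separated the conditions were 2 of 24, both in HOXC. HOXC region 3 (chr12:53999271-54001450) lay over exons of HOXC9 and over the start of the antisense RNA HOXC-AS1. It was open in both TPA libraries and neither control library, at percentiles of 13.1 and 27.9. It was also open in ZnCl2 1, at 30.3. This was 1 of 24 HOX regions (4.17%), against 2.04% of all merged regions, and none was open in both control and neither TPA library, against 0.703%. For ZnCl2 and control there was no HOX region in either direction, against 0.172% open in ZnCl2 and 1.73% open in control only. HOXC region 7 (chr12:54031991-54035560), over HOXC5, was open in both TPA libraries and neither ZnCl2 library, against 9.73% of all merged regions, and was also open in control 2. No HOX region was open in both ZnCl2 and neither TPA library, against 0.991%.

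HOXC region 7 also covers MIR615, a microRNA gene within HOXC5 and the only 1 of 8 microRNA genes in the windows whose start was covered. Mature sequences from RefSeq (GRCh38.p14) are shown with the seed, bases 2 to 8, in capitals, for MIR615 and for 2 microRNAs whose genes in HOXA, HOXB and HOXC were covered in no library and share a seed.
hsa-miR-615-5p: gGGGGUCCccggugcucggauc
hsa-miR-615-3p: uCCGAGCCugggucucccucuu
hsa-miR-196a-5p: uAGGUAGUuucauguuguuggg
hsa-miR-196b-5p: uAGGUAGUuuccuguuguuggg
The MIR615 start had percentiles of 19.7, 3.39 and 20.7 in control 2, TPA 1 and TPA 2. MIR196A1, MIR196A2, MIR196B, MIR10A, MIR10B, MIR3185 and MIR7704 had no region over their starts.

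Most covered long noncoding RNA genes of the windows shared a region with a HOX gene beside them. Of 30, 2 were covered in all 6 libraries, 7 in some and 21 in none. HOXC13-AS, antisense to HOXC13, shared the region of that gene and was among the 2 covered in all. HOXA-AS3 was covered in 5 libraries with the HOXA4 region. HOTAIR, a partner of the Polycomb complex PRC2, was covered in control 2 and ZnCl2 1 at percentiles of 41.2 and 6.72. HOTTIP, which starts within the HOXA13 gene record, runs beyond it and binds a Trithorax complex, was covered in none. Nor was EVX2, the homeobox gene next to HOXD13, covered in any.

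Most Polycomb and Trithorax genes, and several TALE genes, had covered start sites. Of 9 TALE homeodomain genes, whose proteins bind DNA with HOX proteins, 4 were covered in all 6 libraries (MEIS1, MEIS2, PBX3 and PKNOX1), 3 in some and 2 in none, MEIS3 among them. PKNOX1 ranked at percentiles from 93.6 to 96.8 and PBX3 from 80.05 to 91.2. Of 23 Polycomb genes, 13 were covered in all libraries, EZH2, the H3K27 methyltransferase, and SUZ12 among them, and 1 (EED) in none. Of 14 Trithorax and H3K27 demethylase genes, 10 were covered in all, among them KMT2A and KDM6B, and 0 in none. Among 9 retinoic acid receptor and CYP26 genes, which relay the signal that switches on anterior HOX genes in embryos, RARG was covered in all and 6 in none. Of 13 ParaHox and related homeobox genes, MNX1 was covered in all libraries, PDX1 in 3 and 11 in none. Over these 5 lists, 2 genes separated TPA and control (1 Polycomb and 1 TALE gene), against 0.859% of all start sites. A single Trithorax gene, covered in all control and TPA libraries and in neither ZnCl2 library, separated ZnCl2 from both, against 0.235 and 1.57%. All protein-coding genes, for comparison, were covered in all 6 libraries at 39.3% and in none at 39.8%.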

How the data were processed

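ATAC-seq libraries from MCF10A cells, 2 each for control, TPA and ZnCl2, were grouped by their labels. The authors trimmed adapters with BBDuk, mapped reads to hg38 with HISAT2 2.1.0, used SAMtools 1.8, and called open regions per library with HMMRATAC, combining sequencing runs first. Each deposited list gives the position of every region and its score from the authors' caller. The kind of score and the caller's version are not given in the sources used here. Scores were therefore only ranked within a list. The authors' merging with muMerge and blacklist removal came after these lists and were not used here.

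Regions outside the main chromosomes, 72 to 203 per library, were left out. An overlap of 1 bp counted as open or covered. Conditions were compared by two-sided exact permutation tests of library values, clusters by two-sided exact sign flips within libraries, with Benjamini-Hochberg adjustment. Longer lists find more regions, so equal numbers of regions were an alternative. Others were the upper 50% of each list, another start site, window or overlap, and leaving out each library. Genes named with values in every library were those whose conditions did not overlap, those covered in all libraries and the widest region per cluster. Genes were from GENCODE release 44, and promoters were the 250 bp before a start site. The table of RefSeq promoters used here matched 20 of the 39 HOX genes, and that of mature sequences matched the 8 microRNA genes. No 2 lists shared more than 0.180% of identical regions. The procedures were tested on simulated data, where 200 of 200 planted start sites were recovered among 20033 genes. Python 3.11.15, NumPy 2.4.6, pandas 2.3.3, SciPy 1.17.1, Matplotlib 3.10.9 and bedtools 2.31.1 were used. The HOX genes and the lists of related genes were chosen with earlier results of these data known. Some items are not reported here.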

Additional observations from a re-analysis of the deposited data

Results flagged for a closer look

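The HOXA5 start site stood out because its score percentile moved in opposite directions in the 2 treatments. Both TPA libraries lay above both control libraries and both ZnCl2 libraries lay below them. The difference for TPA minus ZnCl2 was 41.5 percentile points, made up of 16.7 for TPA minus control and -24.8 for ZnCl2 minus control. The difference between the 2 treatment effects was not tested, and both effects use the same control libraries. The pattern was present at 150 of 20033 protein-coding start sites.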

How the results depend on the processing

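With the upper 50% of each list, the differences in open share between clusters no longer passed the test: HOXA minus HOXB was 7.70 points, HOXA minus HOXC 4.08, HOXA minus HOXD 7.55, HOXB minus HOXC -3.62 and HOXC minus HOXD 3.47, all in the main direction. HOXB minus HOXD turned to 0.575 when the HOXB window ended at HOXB9, an alternative added after seeing the data. With an equal number of regions, anterior minus central paralogs passed at 10.0 points, central minus posterior turned to -1.67 (and to -2.78 with the upper 50%), TPA minus ZnCl2 in open share turned to -0.21, and the regions separating conditions numbered 1 for ZnCl2 and control and 2 for TPA and ZnCl2. The causes were not tested.

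Leaving out 1 library at a time gave these ranges. HOX start sites covered differed by -2.0 to 2.0 in each of the 3 comparisons. The open share of the HOX windows differed by -3.63 to 2.79 points for TPA minus control, -4.04 to 2.38 for ZnCl2 minus control and -1.68 to 2.50 for TPA minus ZnCl2. Turned signs were 2.79 and 2.38 without control 2, 0.139 and -0.147 without TPA 1 and TPA 2, and 1.27 and -1.68 without ZnCl2 2. The median percentile differed by -26.1 to -6.48 for TPA minus control, -32.3 to -12.7 for ZnCl2 minus control and -0.55 to 13.1 for TPA minus ZnCl2. Regions separating conditions ranged from 1 to 6 for TPA and control, 1 to 5 for ZnCl2 and control and 1 to 7 for TPA and ZnCl2. With 1 library left in a condition, the rule rests on that library alone. These counts are therefore not like the main counts of 1, 0 and 1. Between clusters the ranges were 11.8 to 15.5 points for HOXA minus HOXB, 6.24 to 8.58 for HOXA minus HOXC, 12.0 to 15.2 for HOXA minus HOXD, -7.14 to -5.56 for HOXB minus HOXC, -0.29 to 0.162 for HOXB minus HOXD and 5.72 to 7.02 for HOXC minus HOXD. Between paralog classes they were 2.33 to 6.67, 6.67 to 10.0 and 3.0 to 5.67 for anterior minus central, anterior minus posterior and central minus posterior. HOX minus all protein-coding start sites ranged from -36.1 to -35.4 points and the windows minus their surroundings from 3.23 to 4.17. With 5 libraries a sign-flip test cannot give less than 0.0625.

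The labels do not say whether libraries with the same replicate number were prepared together. Their deviations correlated at 0.111 for TPA and control, -0.152 for ZnCl2 and control and 0.043 for TPA and ZnCl2, which cannot decide it. With the replicate number as a block the differences in means stayed the same, -0.42, -0.83 and 0.41 points of open share among them, and regions separating conditions numbered 1, 0 and 1. Crossed replicate numbers, added after seeing the data, gave 1, 0 and 1 as well. None of these values could have changed. Each condition has 2 libraries with the same numbers, and a region counts only when both agree. Without read counts, a region that is not listed may lie below the lowest score in the lists, 30, so a start site without cover is not shown to be closed.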

Other observations

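Within the windows, TGATNNAT had 63 matches in HOXA, 77 in HOXB, 30 in HOXC and 53 in HOXD. Those inside an open region of at least 1 library numbered 15 in HOXA, 2 in HOXB, 6 in HOXC and 0 in HOXD. The share of the window open in at least 1 library was 29.1% in HOXA, 4.22% in HOXB, 16.7% in HOXC and 2.89% in HOXD. The metal response element core TGCACNC had 61, 172, 82 and 54 matches in the same order, of which 21, 3, 11 and 0 lay in an open region. The other form of that core, TGCGCNC, had 74, 60, 37 and 71 matches, of which 31, 6, 8 and 2 lay in an open region. GC content of the whole windows was 50.9% in HOXA, 49.3% in HOXB, 51.8% in HOXC and 50.0% in HOXD.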
